A study of Mus musculus and Homo sapiens with 14 samples.

Results

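The chemokine genes Ccl2, Ccl7, Cxcl1 and Cxcl10 and the lipocalin gene Lcn2 were followed through 10 mouse libraries of 5 culture conditions. They are 5 of the 35288 genes listed in each mouse table and were taken by symbol. They were selected on their measured TPM, which in MB1 cells grown beside Oli-neu cells exceeded that in MB1 cells alone, so their values in that comparison are a description and carry no test. MB1 is a line of mouse tumour cells, derived at postnatal day 12 from the Sonic hedgehog medulloblastomas of Atoh1-cre:SmoM2 mice, in which Cre under the Atoh1 promoter switches on an active form of Smoothened in granule neuron precursors. Oli-neu cells are mouse oligodendrocyte precursors kept as a line. The groups were MB1 with Oli-neu, MB1 alone, Oli-neu with MB1, Oli-neu with D341 and Oli-neu alone, where D341 is a human Group 3 medulloblastoma line, and each group had 2 biological replicates. All cells grew with B-27 and N-2 supplements and the growth factors EGF and bFGF at 20 ng/mL each, and partner lines shared medium across a porous insert (30 mm wide, 0.4 µm pores). Expression was measured by poly(A) RNA sequencing and is given as TPM, a relative abundance scaled for transcript length and for the total of each library.

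Chemokines are small secreted proteins that attract leukocytes by binding receptors coupled to G proteins. Ccl2 and Ccl7 are monocyte attractants of the CC class. Cxcl1 attracts neutrophils through Cxcr2, and Cxcl10 attracts activated T cells through Cxcr3. Lcn2 encodes lipocalin 2, a secreted protein that binds bacterial siderophores and is known in the brain as a product of reactive astrocytes. All of these genes are known targets of inflammatory signalling: the transcription factor NF-kB acts on most of them, interferon on Cxcl10, and C/EBP factors on Lcn2.

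The sequence before the transcription start is shown because NF-kB, interferon and C/EBP factors act there and the genes were high in the same libraries. RefSeq's promoter table for GRCm38.p6 held 3 of the 5 genes, Cxcl1, Cxcl10 and Lcn2, and Ccl2 and Ccl7 were not matched. For Lcn2 the RefSeq start lies inside the GENCODE gene model. The 250 bases before each start are given 5′ to 3′ on the gene's strand. Capitals mark matches, on either strand, of 5 searched strings: the kB string (GGGA, any 4 bases, CC), the interferon response string (GAAA, any 2 bases, GAAA), the AP-1 string TGANTCA, the C/EBP string TTGCNNAA and the TATA string TATAAA.
Cxcl1 (chr5:90890995-90891244, plus strand): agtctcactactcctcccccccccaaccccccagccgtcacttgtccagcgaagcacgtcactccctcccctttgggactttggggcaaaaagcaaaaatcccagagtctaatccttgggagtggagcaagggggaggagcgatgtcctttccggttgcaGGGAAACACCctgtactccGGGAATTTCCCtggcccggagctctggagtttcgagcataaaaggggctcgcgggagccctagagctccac
Cxcl10 (chr5:92348890-92349139, minus strand): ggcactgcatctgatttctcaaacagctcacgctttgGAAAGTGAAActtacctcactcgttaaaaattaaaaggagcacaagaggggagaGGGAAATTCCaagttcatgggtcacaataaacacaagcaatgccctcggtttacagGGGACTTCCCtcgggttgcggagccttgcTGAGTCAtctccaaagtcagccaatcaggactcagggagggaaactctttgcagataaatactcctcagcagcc
Lcn2 (chr2:32387740-32387989, minus strand): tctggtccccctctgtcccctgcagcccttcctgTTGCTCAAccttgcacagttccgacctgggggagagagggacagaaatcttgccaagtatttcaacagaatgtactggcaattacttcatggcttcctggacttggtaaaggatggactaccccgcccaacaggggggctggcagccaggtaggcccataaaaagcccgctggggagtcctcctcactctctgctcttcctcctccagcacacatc
Cxcl1 held 3 kB matches, at -90, -71 and -70 from the start, of which the last 2 overlap in the run GGGAATTTCCC and lie on opposite strands. Cxcl10 held kB matches at -159 and -103, 1 interferon response match at -213 and 1 AP-1 match at -74. Lcn2 held 1 C/EBP match at -216 and no kB or interferon response match in this window. Over all 32851 promoter windows of the same length, 17.6% held the kB string, 2.98% the interferon response string, 6.75% the AP-1 string, 9.56% the C/EBP string and 12.4% the TATA string, which none of the 3 windows shown here held. A match describes the letters and not the binding of a factor.

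**Figure D1:**
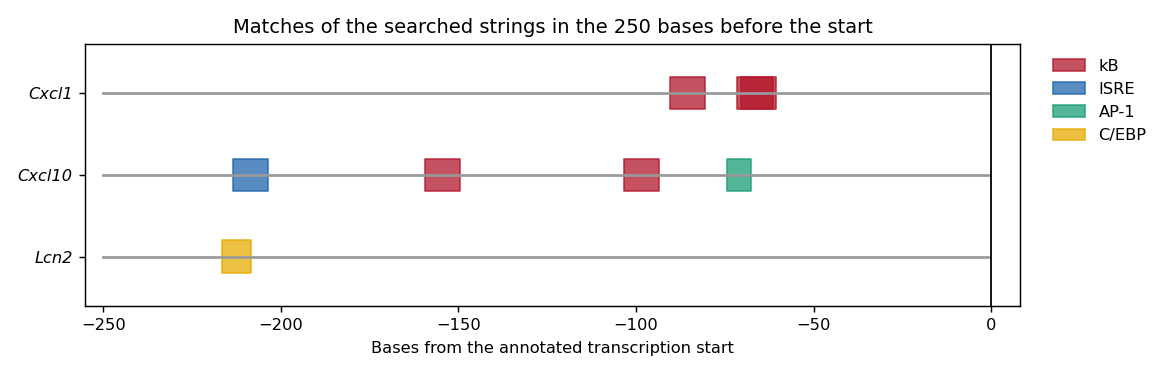
Positions of the string matches in the 250 bases before the annotated start of Cxcl1, Cxcl10 and Lcn2, with the start at 0 on the horizontal axis in bases. The kB matches of Cxcl1 lie between -90 and -61, those of Cxcl10 between -159 and -94, and Lcn2 has 1 C/EBP match from -216 to -209. ISRE in the legend is the interferon response string.

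Lineage genes were read as a check of the labels. Zic1, a granule neuron precursor factor, was at 63.7 to 125 TPM in MB1 and at most 0.0322 TPM in Oli-neu. The hedgehog receptor Ptch1 was at 14.2 to 18.4 TPM in MB1 and at 3.38 to 5.93 TPM in Oli-neu. Atoh1 was at 0 to 0.0143 TPM and the hedgehog effector Gli1 at 0.0822 to 0.178 TPM in MB1, so these defining genes of the tumour type were at or near 0. The oligodendrocyte factor Sox10 was at 171 to 235 TPM in Oli-neu and at 0.466 to 0.882 TPM in MB1. The other oligodendrocyte lineage markers did not all separate the lines this way: Olig2 was at 151 to 246 TPM in MB1 and at 49.2 to 76.0 TPM in Oli-neu, and the 8 markers summed to 635 to 1099 TPM in MB1 and to 543 to 705 TPM in Oli-neu. Between 11596 and 12338 genes reached 1 TPM in a library, and log2(TPM + 1) of the 2 libraries of a group correlated across genes with r of 0.981 to 0.990, where genes are not independent replicates. The depth of the libraries is unknown, since TPM keeps no counts.

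In MB1 cells beside Oli-neu all 5 genes were higher than in MB1 alone, and the 2 libraries of one group did not overlap those of the other for any of them. Ccl2 and Cxcl10 reached the highest levels, Cxcl1 and Ccl7 lower ones, and Lcn2 was listed at 0 in both libraries of MB1 alone. Ccl2, the main attractant of monocytes, was at 9.67 and 9.11 TPM in MB1 with Oli-neu and at 0.611 and 0.445 TPM in MB1 alone. On the log2(TPM + 1) scale, on which differences of low genes are understated, the means differed by 2.77, and the mean TPM was 17.8 times that in MB1 alone. Of the 12407 genes tested in MB1, Ccl2 had the 14th largest difference, Cxcl1 the 28th, Cxcl10 the 66th, Ccl7 the 85th and Lcn2 the 117th. The 5 genes were chosen for being higher in this comparison, so their ranks carry no test. Ccl7, the neighbour of Ccl2, also attracts monocytes. It was at 1.95 and 1.88 TPM in MB1 with Oli-neu and at 0.252 and 0.0544 TPM in MB1 alone. The log2 difference was 1.34, and the mean beside Oli-neu was 12.5 times as high. The 2 libraries of MB1 alone were less alike for Ccl7 than the 2 libraries of MB1 with Oli-neu.

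Cxcl1, the neutrophil attractant, was at 3.87 and 3.60 TPM in MB1 with Oli-neu and at 0 and 0.153 TPM in MB1 alone, a log2 difference of 2.14. Only 1 of the 2 libraries of MB1 alone listed it above 0. Cxcl10, which is also a classic interferon target, was at 8.33 and 7.85 TPM in MB1 with Oli-neu and at 2.07 and 2.43 TPM in MB1 alone, a log2 difference of 1.49 and a mean 3.59 times as high. It was the 1 member at 1 TPM or more in MB1 alone. Lcn2 was at 1.24 and 1.29 TPM in MB1 with Oli-neu and at 0 in both libraries of MB1 alone, a log2 difference of 1.18, with no fold given against a group at 0. In bulk samples a change in the number of cells that express a gene and a change in RNA per cell cannot be told apart.

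**Figure D2:**
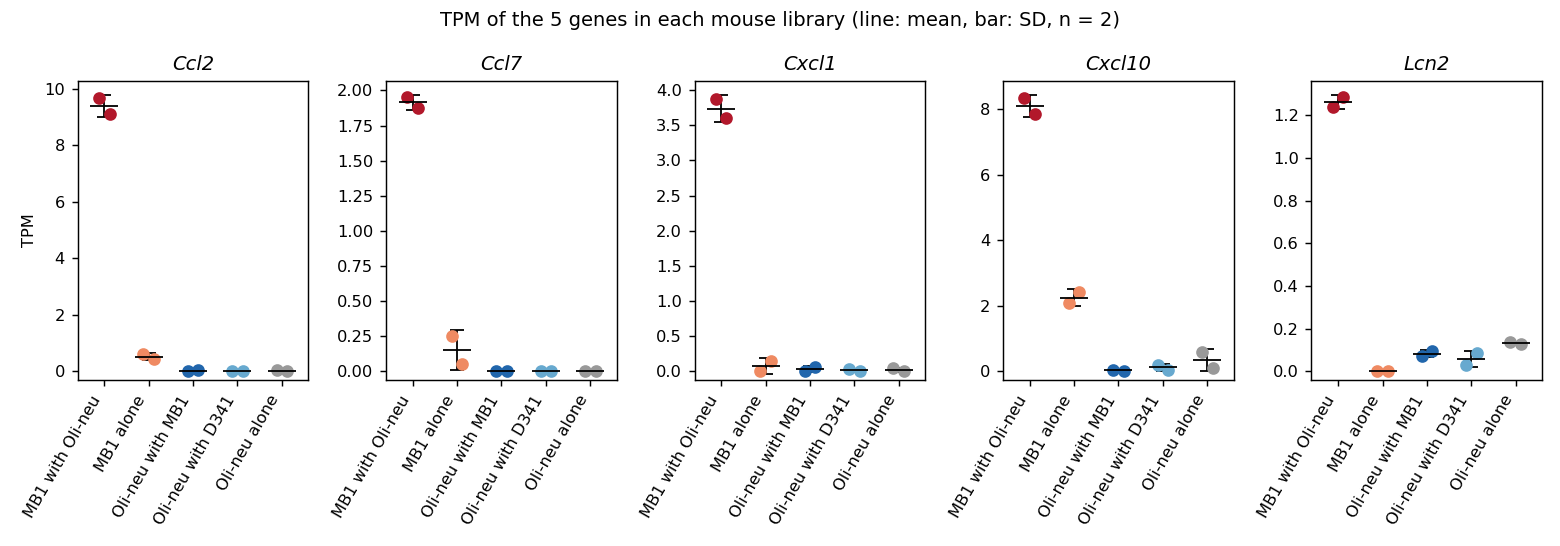
TPM on the vertical axis for each of the 5 genes, with 1 point per library, the mean as a line and the SD as a bar (n = 2), for the 5 mouse groups. The points of MB1 with Oli-neu are the highest in every panel, from 1.24 TPM for Lcn2 to 9.67 TPM for Ccl2, and all Oli-neu libraries lie under 0.6 TPM.

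A gene was tested if 2 or more libraries of its table reached 1 TPM. All 5 genes passed, 4 of them through MB1 with Oli-neu alone. Over all 12407 genes tested in this comparison limma called 0 genes at an adjusted p of 0.05, 0.0% of those tested, and 1944 genes, 15.7%, had an unadjusted p under 0.05. Both libraries of MB1 with Oli-neu lay above both of MB1 alone in 10.9% of the genes tested and below them in 41.5%, and the 5 genes were chosen for lying above. The median log2 difference of all genes tested was -0.17, so that values are best read against that shift.

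The order of the levels in MB1 with Oli-neu was Ccl2, Cxcl10, Cxcl1, Ccl7 and Lcn2, with means of 9.39 ± 0.395, 8.09 ± 0.339, 3.74 ± 0.192, 1.91 ± 0.0543 and 1.26 ± 0.0340 TPM (SD, n = 2). No 2 neighbours in that order overlapped between libraries. These are middling to low levels, since 6841 of the 12407 tested genes had a higher mean than Ccl2 in MB1 with Oli-neu and 11691 had a higher mean than Lcn2. In MB1 alone the order was Cxcl10, at 2.25 ± 0.254 TPM, Ccl2, at 0.528 ± 0.117 TPM, Ccl7, Cxcl1 and Lcn2, where the values of Ccl7 and Cxcl1 overlapped and so did those of Cxcl1 and Lcn2.

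The make-up of the summed level thus differed between the groups. The 5 genes summed to 25.1 and 23.7 TPM in MB1 with Oli-neu and to 2.93 and 3.08 TPM in MB1 alone. Ccl2 made up 38.6% and 38.4% of that sum in MB1 with Oli-neu and 20.8% and 14.4% in MB1 alone, while Cxcl10 made up 33.2% and 33.1% in MB1 with Oli-neu and 70.6% and 78.9% in MB1 alone. The 2 libraries of MB1 with Oli-neu were close to each other in every share. Ccl2 stood to Ccl7 as 4.95 and 4.86 to 1 in the libraries of MB1 with Oli-neu and as 2.42 and 8.17 to 1 in those of MB1 alone. In MB1 alone this ratio thus varied between replicates to both sides of its value beside Oli-neu. There it rests on Ccl7 at 0.252 and 0.0544 TPM, values near 0 that cannot be told from counting error.

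**Figure D3:**
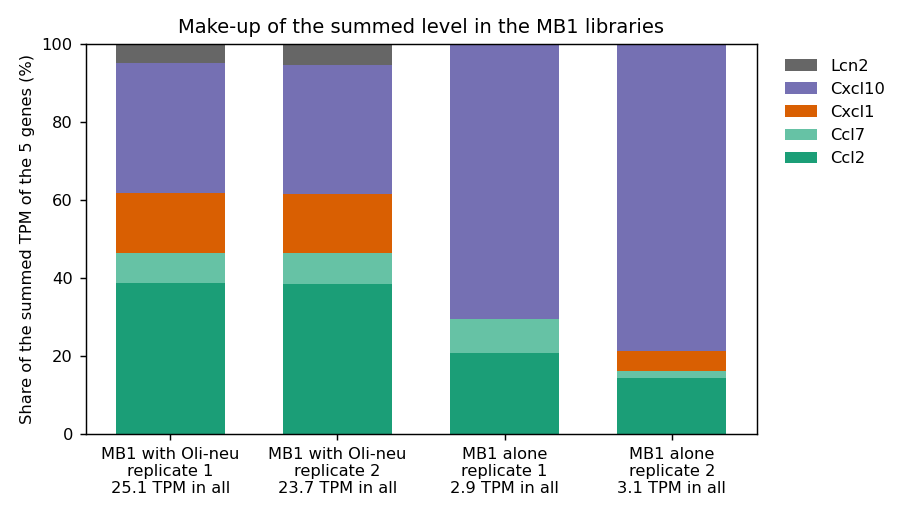
Share of the summed TPM of the 5 genes (vertical axis, %) that each gene held in each MB1 library, with the libraries' sums, 25.1 and 23.7 TPM beside Oli-neu, under the bars. Cxcl10 holds about 33% beside Oli-neu and 70.6% to 78.9% in MB1 alone.

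In Oli-neu cells the same genes were at or near 0 in all 3 conditions, and 0 of the 5 passed the filter. Ccl7 was listed at 0 in all 6 libraries. Ccl2 was at 0 and 0.0410 TPM with MB1, at 0 in both libraries with D341, and at 0.0591 and 0 TPM in Oli-neu alone. Cxcl1 was at 0 and 0.0666 TPM with MB1, 0.0344 and 0 TPM with D341, and 0.0457 and 0 TPM in Oli-neu alone. Neither gene separated any pair of Oli-neu groups.

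Cxcl10 was at 0.0371 and 0.0203 TPM in Oli-neu with MB1, 0.202 and 0.0456 TPM with D341, and 0.586 and 0.1097 TPM in Oli-neu alone. Both libraries with MB1 lay below both libraries of Oli-neu alone, a log2 difference of -0.37 that was -0.11 without replicate 1 and -0.62 without replicate 2 of Oli-neu alone, while the libraries with D341 overlapped those of Oli-neu alone. Lcn2 was at 0.0710 and 0.0938 TPM in Oli-neu with MB1, 0.0307 and 0.0845 TPM with D341, and 0.137 and 0.129 TPM in Oli-neu alone. Both co-culture groups lay below Oli-neu alone, with log2 differences of -0.07 with MB1 and -0.10 with D341. Oli-neu alone serves both comparisons, which are therefore not independent. Across the genes that passed the filter, both co-culture libraries lay below both of Oli-neu alone in 24.0% with MB1 and in 44.0% with D341, and limma called 0.0% in each, with 747 genes (6.08%) with MB1 and 1684 genes (13.7%) with D341 at an unadjusted p under 0.05. Without a filter Ccl2, Cxcl1, Cxcl10 and Lcn2 could be tested in Oli-neu and 0 of them were called by limma in any of the 3 comparisons, the smallest adjusted p being 0.511, for Lcn2 with D341 against Oli-neu alone. Between the co-cultures, Cxcl10 was higher in both Oli-neu libraries with D341 than in both with MB1, with 6.6% of the genes that passed the filter lying so, 28.8% lying the other way, 0.0% called and 630 genes (5.13%) at an unadjusted p under 0.05.

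The levels of MB1 and Oli-neu come from separate tables and are set side by side without a test. The sum of the 5 genes was 0.108 to 0.828 TPM over the 6 Oli-neu libraries, against 2.93 TPM in the lower library of MB1 alone. The partner line across the insert thus held 0.108 and 0.222 TPM of these transcripts where MB1 held 25.1 and 23.7 TPM. Sox10, which marks Oli-neu, was at 0.586 and 0.484 TPM in MB1 with Oli-neu and at 0.882 and 0.466 TPM in MB1 alone. Macrophages are a common source of these chemokines in tissue. Of 15 microglia and macrophage markers, 7 and 9 were at 0 in MB1 with Oli-neu and 7 and 6 in MB1 alone, among them C1qa, C1qb, C1qc and Tyrobp in all 4 libraries. Ptprc and Aif1 were at 0 in both libraries of MB1 with Oli-neu and at 0 and 0.160 TPM and 0 and 0.0900 TPM in those of MB1 alone. The summed level of the 15 markers was 11.8 and 22.1 TPM in MB1 with Oli-neu and 6.57 and 7.63 TPM in MB1 alone, of which the lysosomal protein gene Cd68 held 11.5 and 21.7 TPM beside Oli-neu and 4.88 and 6.78 TPM in MB1 alone. Of 7 endothelial markers, Cdh5 and Cldn5 were at 0 in all 4 MB1 libraries, and the sum was 4.85 and 4.21 TPM with Oli-neu and 1.31 and 1.99 TPM in MB1 alone, most of it Pecam1 in each library. The sum of 8 oligodendrocyte lineage markers was 764 and 635 TPM with Oli-neu and 940 and 1099 TPM in MB1 alone, and that of 8 astrocyte markers was 786 and 804 TPM with Oli-neu and 758 and 650 TPM in MB1 alone. The sum of 8 fibroblast and mural markers was 0.824 and 1.26 TPM with Oli-neu and 0.703 and 0.428 TPM in MB1 alone. The part of these markers in the result was not tested.

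The 4 chemokine genes lie in 2 known clusters, and most neighbouring ligand genes were at or near 0 in MB1. Ccl2 (GRCm38 chromosome 11, 82035571 to 82037453, plus strand) and Ccl7 (82045712 to 82047525, plus strand) are 8259 bases apart. Of the 4 other chemokine genes within 1 Mb of them, Ccl1, Ccl8, Ccl11 and Ccl12, 3 were listed at 0 in all 4 MB1 libraries and Ccl8 at 0 and 0.199 TPM in MB1 with Oli-neu. Cxcl1 (chromosome 5, 90891241 to 90893115, plus strand) and Cxcl10 (chromosome 5, 92346638 to 92348889, minus strand) lie further apart in the CXC cluster. Of 8 other ligand genes within 1 Mb of either, only platelet factor 4, Pf4, passed the filter in MB1, at 1.99 and 0.548 TPM with Oli-neu and 0.819 and 2.03 TPM in MB1 alone. Cxcl2, another ligand of Cxcr2, was at 0.0327 and 0.102 TPM in MB1 with Oli-neu and at 0 in MB1 alone, and Cxcl9 and Cxcl11, which share the receptor Cxcr3 with Cxcl10, were at or under 0.0221 TPM in MB1.

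Lcn2 (chromosome 2, 32384633 to 32388252, minus strand) lies among genes that are expressed in MB1. All 8 other protein-coding genes within 100 kb were tested, with log2 differences of -0.34 to 0.64, against 1.18 for Lcn2. Of 7 such genes near Cxcl1 or Cxcl10, 5 were tested, with log2 differences of -0.49 to 1.20. The highest was that of Art3, against 1.49 for Cxcl10. Overlap with other genes was checked, since it can move reads. Of the stretches of 31 bases in the transcripts of Ccl2, Ccl7, Cxcl1 and Lcn2, 0 occur in transcripts of another gene. For Cxcl10, which lies within Art3 on the opposite strand, 103 of 2305 stretches, 4.47%, also occur in Art3, which was at 6.87 and 5.78 TPM in MB1 with Oli-neu and at 5.26 and 0.618 TPM in MB1 alone. The kit keeps strand, but the strand setting of the counting is not given in the sources used here, and the part of Art3 in the Cxcl10 values was not tested. Ccl2 overlaps the gene model Gm17268, which was listed at 0 in all 4 MB1 libraries.

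The receptors of these ligands were then read in both lines, by their known pairing. The monocyte receptor Ccr2, which binds Ccl2 and Ccl7, reached at most 0.179 TPM in any mouse library. Ccr1 and the Cxcl10 receptor Cxcr3 were listed at 0 in all 10 libraries, and Ccr3 reached at most 0.00974 TPM. The main receptors of Ccl2, Ccl7 and Cxcl10 were thus at or near 0 in both lines. Cxcr2, the receptor of Cxcl1, was at 0.756 and 1.38 TPM in MB1 with Oli-neu, 0.685 and 1.56 TPM in MB1 alone, 2.06 and 4.41 TPM in Oli-neu with MB1, 3.17 and 5.11 TPM in Oli-neu with D341, and 3.11 and 5.36 TPM in Oli-neu alone. The groups of each line overlapped. Slc22a17, a receptor reported for lipocalin 2, was at 93.4 to 130 TPM over the 10 libraries, with overlap between all groups of a line. limma did not call Cxcr2 or Slc22a17 in any of the 4 comparisons (adjusted p between 0.916 and 0.989), and Lrp2, another lipocalin 2 receptor, stayed at or under 0.190 TPM.

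Other ligands of the family were measured as lists without the 5 genes. Of 19 other CC ligands 3 passed the filter in MB1 and of 15 other CXC, CX3C and XC ligands 3 did, and 0 of these 6 were called. Cxcl14 was at 8.03 and 7.83 TPM in MB1 with Oli-neu and 7.15 and 8.85 TPM in MB1 alone, and the membrane-bound ligand Cx3cl1 was at 6.25 and 4.82 TPM with Oli-neu and 4.78 and 6.35 TPM in MB1 alone. Both overlapped between the groups, with log2 differences of -0.00 each. Ccl25, a ligand known for thymocyte homing, was at 10.6 and 11.4 TPM in MB1 with Oli-neu and at 8.86 and 10.5 TPM in MB1 alone. Ccl27a, at 1.83 and 1.18 TPM with Oli-neu and 1.01 and 1.27 TPM in MB1 alone, and Ccl19, at 0.472 and 1.13 TPM with Oli-neu and 0.343 and 1.63 TPM in MB1 alone, overlapped. Of 23 chemokine receptors 4 were tested in MB1 and 0 were called, with the scavenging receptor Ackr3 at 0.650 and 0.848 TPM with Oli-neu and 1.98 and 1.67 TPM in MB1 alone (log2 difference -0.69, SE 0.18, limma adjusted p = 0.282). The Cxcl12 receptor Cxcr4, at 5.69 and 7.71 TPM with Oli-neu and 7.12 and 7.47 TPM in MB1 alone, overlapped.

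Of 17 other genes of the lipocalin family and its receptors 3 were tested in MB1, and 0 were called. Ptgds, the lipocalin that makes prostaglandin D2, was at 143 and 162 TPM in MB1 with Oli-neu and 95.1 and 110 TPM in MB1 alone (log2 difference 0.57, SE 0.17, limma adjusted p = 0.285). Apod, which encodes the lipid carrier apolipoprotein D, was at 1.69 and 1.19 TPM with Oli-neu and 1.08 and 0.552 TPM in MB1 alone. Both were higher in both libraries beside Oli-neu, as were 10.9% of all genes tested in MB1, and the list median was 0.44. In Oli-neu, Ptgds was at 421.6 to 551 TPM and Apod at 13.9 to 18.4 TPM, so these lipocalins were abundant where Lcn2 was near 0.

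In Oli-neu only Ccl5, Ccl25 and Pf4 of the ligands passed the filter. Ccl5, which attracts T cells, was at 4.29 and 3.59 TPM in Oli-neu with MB1, 5.25 and 3.63 TPM with D341, and 2.32 and 1.82 TPM in Oli-neu alone. Both co-culture groups lay above Oli-neu alone, and limma called neither difference (log2 difference 0.69, SE 0.19, adjusted p = 0.715 with MB1, and 0.82, SE 0.19, adjusted p = 0.320 with D341). Of all genes tested in Oli-neu, 10.1% lay above Oli-neu alone in this way with MB1 and 7.12% with D341. Oli-neu alone serves both comparisons, which are therefore not independent. In MB1, Ccl5 was at 0.369 and 0.299 TPM with Oli-neu and at 0.135 and 0.111 TPM in MB1 alone.

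Other targets of inflammatory signalling, and receptors and cytokines upstream of it, were read in MB1, and 0 members of any of the lists below were called by limma. Of 30 NF-kB targets and feedback genes 17 were tested, 11 with a higher and 6 with a lower mean log2(TPM + 1) beside Oli-neu, the scale used for all such counts below, and their median log2 difference was 0.26, where that of all genes tested was -0.17. The inhibitor Nfkbia, which NF-kB itself switches on, was at 53.0 and 58.8 TPM in MB1 with Oli-neu and at 25.4 and 32.1 TPM in MB1 alone (log2 difference 0.94, SE 0.18, limma adjusted p = 0.282). Bcl3, an NF-kB cofactor, was at 2.04 and 1.78 TPM with Oli-neu and 0.296 and 0.616 TPM in MB1 alone. Both were separated between the groups. Of the 17 list genes tested, 10 lay above MB1 alone without overlap and 3 below. Over all genes tested in MB1, 10.9% lay above in this way and 41.5% below. Nfkbiz, another inducible cofactor, which is required for Lcn2 in macrophages, was at 80.5 and 96.6 TPM with Oli-neu and 58.7 and 14.8 TPM in MB1 alone, a log2 difference of 1.54 (SE 0.64, limma adjusted p = 0.333). Without replicate 1 of MB1 alone that difference was 2.49, but MB1 alone was then 1 library, whose own spread cannot be measured. The antioxidant enzyme gene Sod2 lay the other way, at 70.3 and 64.5 TPM with Oli-neu and 101 and 88.7 TPM in MB1 alone, and Ier3, an early response gene, overlapped between the groups at 66.7 and 58.8 TPM with Oli-neu and 61.7 and 75.8 TPM in MB1 alone.

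Of 30 interferon-stimulated genes 14 were tested, 10 with a higher and 4 with a lower mean, with a median of 0.21. The transcription factor Stat2 was at 5.75 and 8.02 TPM in MB1 with Oli-neu and 8.61 and 9.11 TPM in MB1 alone. Tap1, which feeds peptides to MHC class I, was at 7.39 and 6.27 TPM with Oli-neu and 5.28 and 6.81 TPM in MB1 alone. Both Stat2 values were lower beside Oli-neu without passing the test, and Tap1 overlapped. Of the 14 list genes tested, 5 lay above MB1 alone without overlap and 4 below, against 10.9% and 41.5% of all genes tested. The proteasome subunit Psmb8 had the largest difference of the list, at 2.09 and 2.19 TPM with Oli-neu and 0.618 and 1.07 TPM in MB1 alone (log2 difference 0.78, SE 0.20, limma adjusted p = 0.282).

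Of 24 acute phase genes and targets of STAT3 or C/EBP 13 were tested, 9 with a higher and 4 with a lower mean, with a median of 0.31. The protease inhibitor Timp1 was at 14.7 and 12.7 TPM in MB1 with Oli-neu and 5.60 and 6.47 TPM in MB1 alone (log2 difference 1.06, SE 0.17, limma adjusted p = 0.258). Serpina3n, like Lcn2 a gene of reactive astrocytes, was at 19.1 and 18.3 TPM with Oli-neu and 9.06 and 9.80 TPM in MB1 alone, and the copper carrier ceruloplasmin, Cp, was at 62.9 and 74.3 TPM with Oli-neu and 42.7 and 42.8 TPM in MB1 alone. All 3 were separated between the groups, and Timp1 and Serpina3n were named for their differences. Of the 13 genes tested, 5 lay above MB1 alone without overlap and 1 below. Over all genes tested in MB1, 10.9% lay above in this way and 41.5% below. Stat3 itself was at 55.8 and 87.5 TPM with Oli-neu and 59.4 and 74.3 TPM in MB1 alone, and the early response gene Junb was at 14.7 and 24.4 TPM with Oli-neu and 7.46 and 14.8 TPM in MB1 alone, so that both overlapped.

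Of 24 genes of cytokine and pattern receptors and their adaptors 14 were tested, 6 with a higher and 8 with a lower mean, with a median of -0.10. The TNF receptor Tnfrsf1a was at 75.4 and 104 TPM in MB1 with Oli-neu and 83.3 and 35.6 TPM in MB1 alone, and the interferon gamma receptor chain Ifngr1 was at 9.79 and 11.3 TPM with Oli-neu and 13.8 and 20.5 TPM in MB1 alone. Tnfrsf1a overlapped and both Ifngr1 values were lower beside Oli-neu. The shared IL-6 family receptor chain Il6st, at 25.1 and 52.7 TPM with Oli-neu and 26.2 and 26.9 TPM in MB1 alone, overlapped. The interferon receptor chain Ifnar2 was separated, at 26.2 and 22.8 TPM with Oli-neu and 20.1 and 20.4 TPM in MB1 alone. Of the 14 receptor and adaptor genes tested, 3 lay above MB1 alone without overlap and 5 below. Of 24 upstream cytokine ligands 8 were tested, 7 with a higher and 1 with a lower mean, with a median of 0.43. The alarmin Il33 was at 61.4 and 70.5 TPM in MB1 with Oli-neu and 43.6 and 35.9 TPM in MB1 alone, and Clcf1, a ligand of the IL-6 family, was at 1.87 and 2.71 TPM with Oli-neu and 0.651 and 0.742 TPM in MB1 alone. Both were separated between the groups. Of the 8 ligand genes tested, 4 lay above MB1 alone without overlap and 0 below. Over all genes tested in MB1, 10.9% lay above in this way and 41.5% below. The nuclear protein and alarmin Hmgb1, at 393 and 458 TPM with Oli-neu and 460 and 421 TPM in MB1 alone, and Il18, at 34.8 and 30.8 TPM with Oli-neu and 43.3 and 23.3 TPM in MB1 alone, overlapped. The classic inducers Il1b and Ifng were listed at 0 in all 10 mouse libraries, and Tnf stayed at or under 0.0274 TPM. Nfkbia, Bcl3, Psmb8, Timp1, Serpina3n, Ifngr1 and Clcf1 were named after their values were seen, for their differences, and the cytokines at 0 for being known inducers.

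In Oli-neu limma also called 0 members of these lists. The NF-kB list had a median log2 difference of 0.04 with MB1 and -0.02 with D341, each against Oli-neu alone. Nfkbiz was at 41.3 and 47.2 TPM in Oli-neu with MB1, 40.8 and 35.2 TPM with D341, and 21.3 and 14.5 TPM in Oli-neu alone. The limma adjusted p was 0.715 with MB1 and 0.320 with D341. Nfkbiz was separated from Oli-neu alone with either partner, with the 5 genes under 0.6 TPM, and a link between them was not tested. Of all genes tested in Oli-neu, 10.1% lay above Oli-neu alone in this way with MB1 and 7.12% with D341. Both comparisons use the same libraries of Oli-neu alone. The interferon list had 8 of 13 lower means with MB1 (median -0.09, all genes -0.06) and 10 of 13 with D341 (median -0.13, all genes -0.16), and with median-ratio scaling 6 of 13 lay above 0 with MB1 and 7 of 13 with D341. Irf1, an interferon-induced factor, was at 7.51 and 6.63 TPM with MB1, 7.41 and 7.80 TPM with D341, and 10.6 and 8.26 TPM in Oli-neu alone. Of the cytokine and pattern receptors, 0 of 11 had a higher mean with D341 than in Oli-neu alone. Their median was -0.18, where that of all genes was -0.16. With median-ratio scaling 4 of these 11 lay above 0 and their median was -0.07, where that of all genes was 0.00. The acute phase list had 8 higher and 4 lower means with MB1 (median 0.07) and again with D341 (median 0.13). Without overlap, 4 of these 12 genes lay above Oli-neu alone and 1 below with MB1, and 4 above and 2 below with D341. Over all genes tested, 10.1% lay above and 24.0% below with MB1, and 7.12% above and 44.0% below with D341. Serpina3n, Cp and Junb were among the list genes above with each partner. Serpina3n was at 21.6 and 18.1 TPM with MB1, 15.5 and 13.8 TPM with D341, and 12.8 and 12.4 TPM in Oli-neu alone.

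With the MB1 columns scaled by median ratios the median of all genes tested in MB1 with Oli-neu against MB1 alone was -0.00, and the list medians were 0.40 for NF-kB genes, 0.35 for interferon-stimulated genes, 0.48 for acute phase genes and 0.56 for cytokine ligands. Those of the cytokine receptors (0.04), the CXC ligands (0.16) and the chemokine receptors (0.06) turned from negative to positive. In Oli-neu the scaled NF-kB medians were 0.09 with MB1 and 0.13 with D341.

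**Figure D4:**
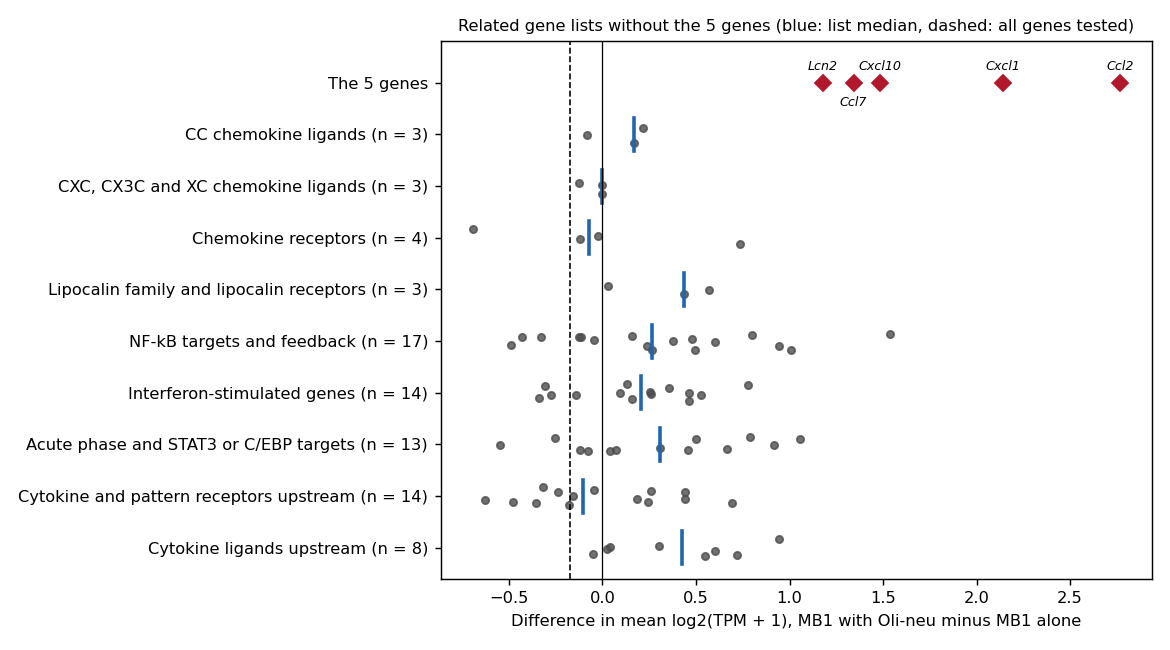
Difference in mean log2(TPM + 1) between MB1 with Oli-neu and MB1 alone (horizontal axis) for the 5 genes (red diamonds) and for the tested genes of 9 lists without them (grey points, 1 per gene). Blue bars are list medians, from -0.10 to 0.44, and the dashed line is the median of all genes tested, -0.17; of the list genes, Nfkbiz, at 1.54, lies above 3 of the 5 genes.

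Genes with the most alike pattern were found by Pearson's r with the average of the 5 standardised genes over the 10 mouse libraries, among 9122 genes with a mean of at least 5 TPM in some group. The libraries share 2 tables and 2 cell lines, and r is given as a description with no p. The 8 highest were Cd44 (r = 0.964), Hbegf (0.958), Mras (0.948), Ccdc63 (0.947), Paxx (0.946), Atp1b2 (0.940), Mxd4 (0.939) and Arl6ip5 (0.937). With a pseudocount of 0.1 TPM 6 of these 8 were again among the first 8, and over the 4 MB1 libraries 0 of them were. The member least like the average was Cxcl10, with r of 0.930. Cd44, the hyaluronan receptor, was at 31.04 and 32.32 TPM in MB1 with Oli-neu, 18.1 and 19.0 TPM in MB1 alone, and 13.6 to 16.6 TPM in the 6 Oli-neu libraries. Hbegf, a growth factor of the EGF family, was at 18.3 and 18.9 TPM in MB1 with Oli-neu, 10.1 and 12.7 TPM in MB1 alone, and 9.94 to 11.4 TPM in Oli-neu. Unlike the 5 genes, both were well expressed in Oli-neu.

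**Figure D5:**
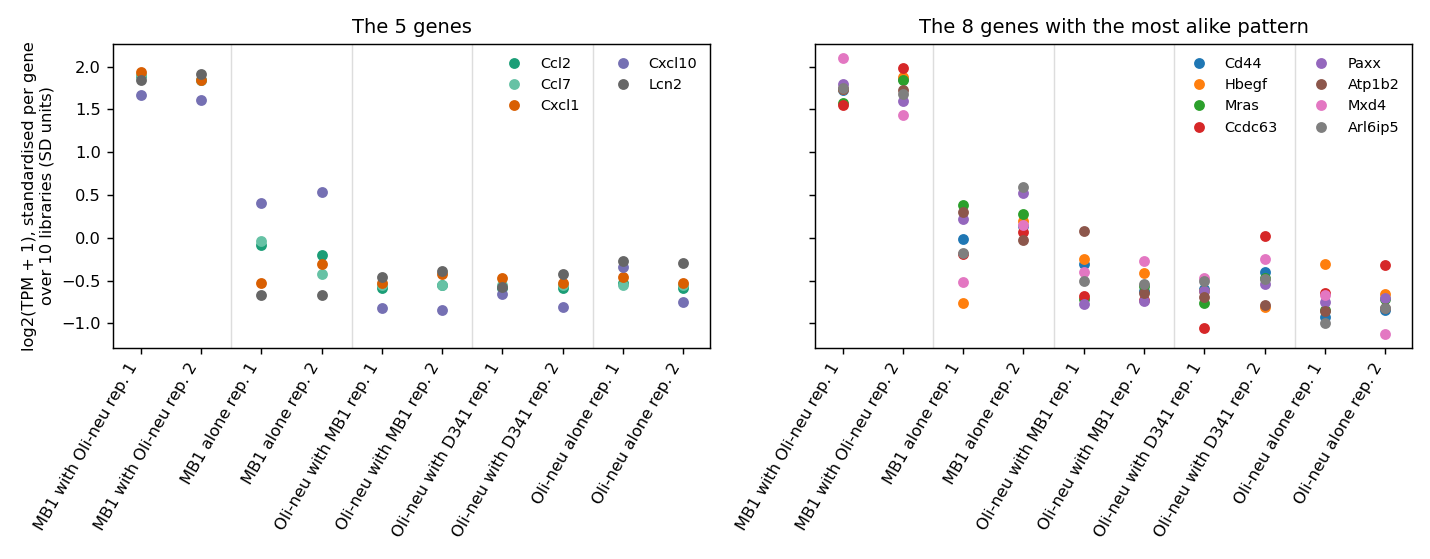
log2(TPM + 1) standardised per gene over the 10 mouse libraries (vertical axis, SD units), with 1 point per gene and library, for the 5 genes (left) and the 8 genes with the most alike pattern (right). In both panels the 2 libraries of MB1 with Oli-neu are the highest, and Cxcl10 is the highest of the 5 genes in MB1 alone.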

How the data were processed

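Values were deposited as TPM, in 1 table per cell line. The submitters' processing notes list Salmon 0.14.1 and DESeq2 1.22.2, beside FastQC 0.11.8 and MultiQC 1.7, and the builds GRCm38 and GRCh38. The annotation version and strand setting are not given in the sources used here. The tables hold no counts, so depth is unknown and no count model was used. A gene reaching 1 TPM in 2 or more of a table's libraries entered limma 3.58.1 (R 4.3.3) on log2(TPM + 1), with a trended prior and Benjamini-Hochberg adjustment at 0.05, each table apart. The script was tested on simulated data. GENCODE M21 gave names and coordinates. Replicates are biological replicates per the labels. The 5 genes and all lists were chosen with earlier results of these data known. Named are the 5 genes, called genes of each list, the 3 list members with the highest mean TPM, fixed lineage markers, the known receptors and the 8 most alike genes. Some genes the rule names are not reported here. Nfkbia, Bcl3, Psmb8, Timp1, Serpina3n, Ifngr1, Clcf1 and Cd68 were named after their values were seen. Pseudocounts of 0.1 and 5 TPM, no filter, median-ratio scaling, no trend, a replicate block and leaving out each library were tried. Human D341 libraries were not analysed here.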

Additional observations from a re-analysis of the deposited data

Results flagged for a closer look

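For Cxcl10 and Lcn2 the Oli-neu libraries differed from Oli-neu alone in the direction opposite to that in MB1. Cxcl10 in Oli-neu with MB1 against Oli-neu alone had a log2 difference of -0.37, with both libraries lower. It was -0.11 without replicate 1 and -0.62 without replicate 2 of Oli-neu alone, and -1.56 with a pseudocount of 0.1 TPM. By contrast, both MB1 libraries beside Oli-neu were higher than MB1 alone. Lcn2 had log2 differences of -0.07 in Oli-neu with MB1 and -0.10 in Oli-neu with D341, each against Oli-neu alone, again with both libraries lower. Of all genes tested in Oli-neu, 24.0% lay below Oli-neu alone in this way with MB1 and 44.0% with D341. The difference between the lines was not tested, and every Oli-neu value concerned is under 0.6 TPM.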

How the results depend on the processing

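The direction of the 5 genes in MB1 was fixed by their choice and is no sign of stability. With a pseudocount of 0.1 TPM the log2 differences were 3.93 for Ccl2, 3.11 for Ccl7, 4.59 for Cxcl1, 1.80 for Cxcl10 and 3.77 for Lcn2, and with 5 TPM they were 1.38, 0.42, 0.78, 0.85 and 0.32 in the same order, so their sizes and their order depend on that choice. In Oli-neu the 5 genes entered a test only without the filter, which tested 4 of them and called 0. The count of genes called in MB1 was 0, and 1 to 112 when 1 library was left out: 112 without replicate 1 of MB1 alone, 1 without replicate 2 of MB1 alone, 2 without replicate 1 and 1 without replicate 2 of MB1 with Oli-neu. For Oli-neu with MB1 against Oli-neu alone it was 1 without a filter, 3 with 0.1 TPM as the pseudocount, 2 with median-ratio scaling and 1 without a trend. For Oli-neu with D341 against Oli-neu alone it was 3 without a filter and 0 to 2 when 1 library was left out, the 2 without replicate 2 of Oli-neu with D341. Between the 2 co-cultures of Oli-neu, D341 against MB1, it was 6 without a filter, 1 without a trend and 0 to 3 when 1 library was left out, the 3 without replicate 2 of Oli-neu with D341. Leaving out 1 library leaves an arm of 1, assumed to vary like the other groups of its table. The causes were not tested. The labels share only a replicate number: deviations of same-numbered libraries correlated at -0.12 in MB1 and at 0.59 to 0.62 in Oli-neu, the replicate block called 0 genes in all 4 comparisons, and a block with crossed numbers in MB1, chosen after seeing the data, called 0. With 2 libraries a group and no counts, values near 0 cannot be told from counting error.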
